A study of Mus musculus with 5 samples.

Results

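RNA-Seq of colon tumors from 5 mice was examined for 10 genes of simple columnar epithelium, across 2 Control and 3 SIGLEC12 samples. The genes were the keratins Krt8, Krt18, Krt19, Krt20, Krt7 and Krt23, the adhesion genes Epcam and Cdh17, the microvillus gene Vil1 and the galectin gene Lgals4. They were picked by symbol from the 52143 genes of the deposited table, and each symbol had a single entry. All mice were females of 8 weeks at the start and received tamoxifen (10 mg/ml) for 5 days, azoxymethane (AOM, a carcinogen) at 10 mg/kg, and dextran sodium sulfate (DSS, an agent that damages the gut lining) at 2.0% in 4 cycles of 5 days, with 14 days of recovery between them, until day 87. The Control mice (Villin1-Cre-ERT, written Villin-Cre-RT in the labels) carried the tamoxifen-inducible Cre under the Villin1 promoter, which restricts it to intestinal epithelium. The SIGLEC12 mice (SIGLEC12-Villin1-Cre-ERT) also carried 1 floxed allele of human SIGLEC12 in the ROSA26 gene, behind an egfp stop cassette. SIGLEC12 encodes Siglec-XII, of the Siglec family of lectins. According to the paper, a missense mutation shared by all humans leaves this protein unable to bind sialic acids. Controls were littermates. The comparison asked how Siglec-XII in the epithelium alters the tumor transcriptome, and 1 sample stood for 1 mouse.

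Keratins form the intermediate filaments of epithelial cells, and each filament needs a type II partner (here Krt8 or Krt7) bound to a type I partner (Krt18, Krt19, Krt20 or Krt23). The pair of Krt8 and Krt18 marks simple, single-layered epithelium, and Krt20 marks differentiated cells at the surface of the gut lining. Stratified squamous epithelium, such as that of the anal canal next to the rectum, builds its filaments from other keratins, among them Krt5 and Krt14. Epcam is an adhesion protein of epithelial cells, Cdh17 is a cadherin of intestinal epithelium, Vil1 encodes villin, which bundles actin in microvilli, and Lgals4 encodes a galectin abundant in gut epithelium.

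The values were the authors' log2(TPM + 1), where TPM is the abundance of a gene's transcripts, corrected for their length and relative to all RNA of the sample. They are called log2 levels here, and levels of different genes can be compared on this scale. The values keep no read depth, so no counting error could be given. Protein-coding genes took from 5.70% to 6.73% of the TPM total in Control and from 8.75% to 9.72% in SIGLEC12, and the median log2 fold change of all 10338 tested genes was 0.38 as deposited. It was 0.01 once each sample was rescaled to the same protein-coding total. Control replicate 1 was the lowest sample for all 10 members and the highest for 10 of 14 squamous markers, as given below. Results are therefore also given without it. Of the colon markers, Muc2 (the goblet cell mucin) and Car1 (a carbonic anhydrase of colonocytes) lay between 6.74 and 8.47 and between 4.56 and 6.70 in the 5 samples, whereas the intestinal regulator Cdx2 was between 0.19 and 2.04 and did not pass the filter on low values. All 10 members passed the filter.

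The 6 keratin genes lie in the 2 keratin clusters of the mouse genome (GENCODE M21 on GRCm38). Krt8 (ENSMUSG00000049382, chr15:101996698-102004482, minus strand) and Krt18 (ENSMUSG00000023043, chr15:102028180-102032027, plus strand) point away from each other across 23.7 kb. Krt18 is the only type I member in that type II cluster, in which Krt7 (ENSMUSG00000023039, chr15:101411043-101430313, plus strand) lies 566.4 kb from Krt8. Krt20 (ENSMUSG00000035775, chr11:99428403-99438150, minus strand), Krt23 (ENSMUSG00000006777, chr11:99477974-99493137, minus strand) and Krt19 (ENSMUSG00000020911, chr11:100140810-100148665, minus strand) lie in the type I cluster, with 39.8 kb between the first and the second. The others are scattered: Epcam (ENSMUSG00000045394, chr17:87635979-87651129, plus strand), Vil1 (ENSMUSG00000026175, chr1:74409376-74435559, plus strand), Cdh17 (ENSMUSG00000028217, chr4:11758147-11817895, plus strand) and Lgals4 (ENSMUSG00000053964, chr7:28833854-28841708, plus strand). For 9 of the members the table named a protein-coding transcript. For Krt7 it named a processed transcript of 2 exons and 690 bases, and whether the Krt7 value also holds the coding transcript is not stated.

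Promoter windows from RefSeq (GRCm38.p6) were found for 8 of the 10 members, and 4 are shown, for Krt20, Krt23 and Epcam because they held letters of a TATA or CDX-type site near the start, and for Vil1 because its promoter drives the Cre. Each is given 5′ to 3′ on the strand of the gene, without bases downstream of the annotated start, with the matches in capitals. They are Krt20 (chr11:99438154-99438403, minus strand), Krt23 (chr11:99493138-99493370, minus strand), Epcam (chr17:87635729-87635978, plus strand) and Vil1 (chr1:74409134-74409375, plus strand).
Krt20: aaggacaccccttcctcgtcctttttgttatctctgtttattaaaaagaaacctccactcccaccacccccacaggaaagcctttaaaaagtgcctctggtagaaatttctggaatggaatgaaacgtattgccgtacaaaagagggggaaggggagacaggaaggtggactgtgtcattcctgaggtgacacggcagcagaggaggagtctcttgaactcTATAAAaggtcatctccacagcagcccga
Krt23: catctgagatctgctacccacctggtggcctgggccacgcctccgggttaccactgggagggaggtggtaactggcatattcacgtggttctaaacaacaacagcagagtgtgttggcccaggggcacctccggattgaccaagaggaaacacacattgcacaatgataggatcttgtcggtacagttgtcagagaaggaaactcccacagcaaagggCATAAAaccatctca
Epcam: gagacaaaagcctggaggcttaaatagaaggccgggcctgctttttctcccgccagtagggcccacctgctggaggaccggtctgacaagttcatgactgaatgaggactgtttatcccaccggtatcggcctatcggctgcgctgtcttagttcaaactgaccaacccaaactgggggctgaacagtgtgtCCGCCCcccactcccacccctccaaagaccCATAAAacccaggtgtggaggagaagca
Vil1: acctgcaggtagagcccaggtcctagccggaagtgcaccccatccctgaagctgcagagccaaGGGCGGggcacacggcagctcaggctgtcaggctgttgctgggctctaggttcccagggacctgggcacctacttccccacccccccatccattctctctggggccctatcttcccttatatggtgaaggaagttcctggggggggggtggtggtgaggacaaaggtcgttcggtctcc
The letters searched on both strands in the 250 bases before the RefSeq start were the TATA box TATAAA, the GC box GGGCGG, the AP-1 site TGANTCA and the CDX-type site TTTATG, of which none overlap in the sequences shown. Over all 32851 windows, 12.4% held the first, 32.7% the second, 6.75% the third and 10.8% the fourth. Krt20 held a TATA box that began at position -29, counting back from the start. Krt23 and Epcam held the reverse letters of the CDX-type site at positions -32 and -28, close to where the TATA box of Krt20 lay, and Epcam and Vil1 held a GC box at -58 and -187. The Krt7 window held 4 GC boxes, but it lay inside the annotated gene and did not hold the start of the transcript named above. The windows of Krt8, Krt18 and Lgals4 held none of these letters, and none of the 8 windows held the AP-1 letters. That of Lgals4 also did not hold the start of its named transcript.

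Krt19 had the highest log2 level of the members in each of the 5 samples, and Krt23 the lowest. By mean log2 level the order was Krt19 (8.11), Lgals4 (7.64), Krt8 (7.53), Epcam (6.41), Krt18 (5.13), Cdh17 (4.56), Krt20 (4.56), Krt7 (4.53), Vil1 (4.13) and Krt23 (1.87). Krt19 exceeded 99.5% of the tested genes in mean level, and Krt23 49.8%. Lgals4 and Krt8 differed by 0.11 ± 0.31 (SD, n = 5) and changed places in SIGLEC12 replicate 4. Cdh17, Krt20, Krt7 and Vil1 also changed places between samples, so their order did not exceed the spread. Krt18 also moved in this order, since it was below Krt7 in Control replicate 1 and below Krt20 in Control replicate 4, and above both genes in the SIGLEC12 samples. Krt8 was above its partner Krt18 by between 2.30 and 2.64 on the log2 level in every sample, and Krt19 was above Krt8 by between 0.46 and 0.73. The Krt8 pseudogene Krt8-ps, which could share reads with Krt8, had a TPM between 0.278 and 1.82, against 54.3 to 401.0 for Krt8.

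**Figure D1:**
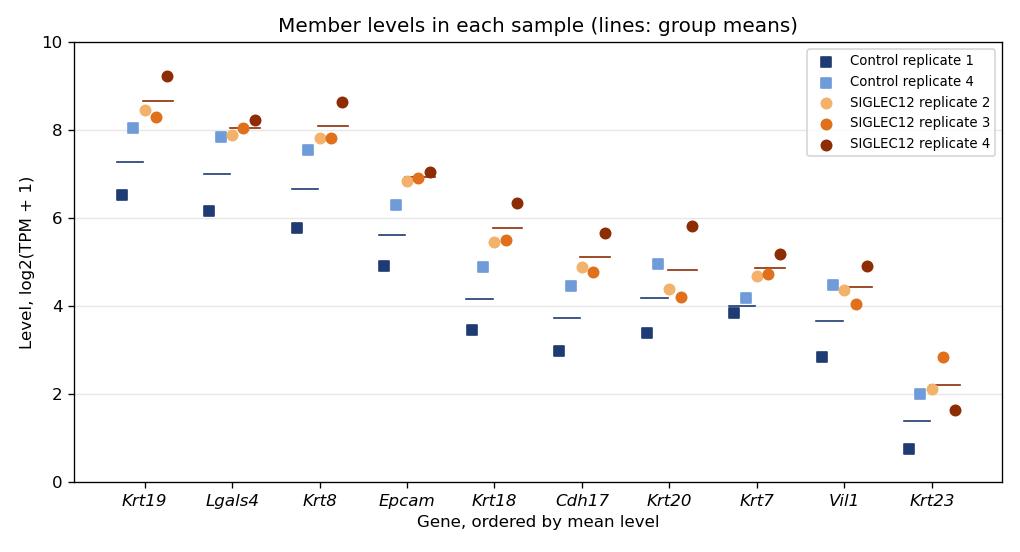
Log2 level, log2(TPM + 1), of the 10 members in each of the 5 samples (squares, Control; circles, SIGLEC12), with lines at the group means. Control replicate 1 is the lowest sample for all 10 genes, and the SIGLEC12 samples lie above both Control samples for 7 of them.

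The filament pair of simple epithelium was higher in the SIGLEC12 samples, but not past the threshold. Krt8 had a log2 level of 5.79 and 7.54 in Control replicates 1 and 4, and of 7.82, 7.84 and 8.65 in SIGLEC12 replicates 2, 3 and 4. The lowest SIGLEC12 sample lay above Control replicate 4 by less than the distance between the Control samples. Its log2 fold change was 1.44 ± 0.55 (SE), with p = 0.127 by limma after adjustment and 0.1 by exact permutation, the smallest that 2 against 3 samples allow. Krt18 had 3.45 and 4.90 in Control, and 5.46, 5.50 and 6.35 in SIGLEC12. The groups did not overlap, and Krt18 had the largest difference of the members, a log2 fold change of 1.60 ± 0.49 (SE; adjusted p = 0.101, limma). After rescaling, Krt8 and Krt18 differed by 0.89 and 1.07, and Krt18 alone of the pair kept the groups apart.

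Krt19, the small type I keratin of simple epithelia, had 6.52 and 8.05 in Control, and 8.45, 8.30 and 9.23 in SIGLEC12. Its groups did not overlap as deposited, and they did after rescaling. The log2 fold change was 1.38 ± 0.51 (SE; adjusted p = 0.122, limma), and 0.83 after rescaling. Krt7, a type II keratin of ducts and other simple linings, had 3.85 and 4.18 in Control, and 4.68, 4.73 and 5.20 in SIGLEC12. Its Control samples were the closest of any member, 0.32 apart on the log2 level, and both lay below all SIGLEC12 samples. Krt7 differed by a log2 fold change of 0.86 ± 0.26 (SE; adjusted p = 0.101, limma), and 0.33 after rescaling, where the groups still did not overlap.

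Krt20, the keratin of differentiated surface cells, did not separate the groups. It had 3.40 and 4.95 in Control, and 4.40, 4.21 and 5.83 in SIGLEC12, so that Control replicate 4 lay above both SIGLEC12 replicates 2 and 3. The groups differed by 0.64 ± 0.63 (SE), with p = 0.462 by limma after adjustment and 0.6 by exact permutation. It was 0.13 without SIGLEC12 replicate 4, the highest sample. Krt23, a type I keratin of low level here, had 0.75 and 2.01 in Control, and 2.12, 2.84 and 1.65 in SIGLEC12. It was the only member whose highest sample was SIGLEC12 replicate 3, and its groups overlapped. The difference came to 0.82 ± 0.46 (SE), with p = 0.233 by limma after adjustment and 0.4 by exact permutation.

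Of the adhesion genes, Epcam had 4.92 and 6.31 in Control, and 6.85, 6.92 and 7.06 in SIGLEC12. Its SIGLEC12 samples were the tightest of any member, with an SD of 0.11, and the groups stayed apart after rescaling. The log2 fold change was 1.33 ± 0.42 (SE; adjusted p = 0.102, limma), and 0.79 after rescaling. Cdh17 had 2.99 and 4.46 in Control, and 4.90, 4.79 and 5.67 in SIGLEC12. The groups did not overlap as deposited, and they overlapped after rescaling, where the log2 fold change went from 1.40 ± 0.49 (SE; adjusted p = 0.114, limma) to 0.88. Lgals4 had 6.16 and 7.84 in Control, and 7.90, 8.05 and 8.24 in SIGLEC12. Control replicate 4 lay just below the SIGLEC12 samples, and above all of them after rescaling. Its difference was 1.06 ± 0.48 (SE; adjusted p = 0.167, limma), and 0.51 after rescaling.

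Vil1, whose promoter drives the Cre in both groups, was measured by its own gene entry. Whether transcripts of the Cre transgene add to that entry was not checked. Vil1 had 2.84 and 4.48 in Control, and 4.37, 4.05 and 4.91 in SIGLEC12. Control replicate 4 lay above both SIGLEC12 replicates 2 and 3, as for Krt20. The log2 fold change was 0.78 ± 0.51 (SE), with p = 0.283 by limma after adjustment and 0.5 by exact permutation. Once rescaled, the difference was 0.27.

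All 10 members had a positive log2 fold change, as did 87.2% of all genes tested, and after rescaling all 10 and 51.1%. Their median was 1.20 as deposited, against 0.38 over all genes tested, and 0.65 after rescaling, against 0.01. No member passed an adjusted p under 0.05 with a change of at least 2-fold, and neither did any other gene (0% in either direction, with 3543 genes at an unadjusted p under 0.05 by limma). Without adjustment, Krt8, Krt18, Krt19, Epcam and Cdh17 had limma p-values within 0.05 together with a 2-fold higher level, 5 of 10 against 3.97% of all genes tested. With no limit on the fold, Krt7 joined them, 6 of 10 against 33.4% of all genes. Once rescaled, 0 of 10 were that low in p (all genes: 4.45% higher). These shares cover all tested genes, whereas all members but Krt23 exceeded at least 92.2% of them in mean level. With a TPM of at least 5, as deposited, 353 of 3476 genes had an unadjusted limma p within 0.05 and a 2-fold higher level, against 5 of 9 members. Of these 3476 genes, 1765 had an unadjusted limma p under 0.05 in either direction, and the median log2 fold change was 0.60. In 7 of 10 members the SIGLEC12 samples lay above both Control samples, against 54.1% of all genes. After rescaling this held for Krt18, Krt7 and Epcam, 3 of 10 against 15.6%. These samples are the only replicates, and where in the colon each tumor lay is not given, so the p-values measure the spread between these 5 samples only.

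The distance between the Control samples exceeded the difference between the groups for all members but Krt18 and Krt7. Control replicate 1 lay below Control replicate 4 by a median of 1.50 on the log2 level over the 10 members, against 0.27 over all tested genes. It lay at least 2-fold lower for 9 of the 10 members, all but Krt7, against 7.22% of all tested genes. Summed over the members, the TPM was 291.8 in Control replicate 1 and 876.2 in Control replicate 4, and 1066, 1062 and 1689 in SIGLEC12 replicates 2, 3 and 4. As a share of the protein-coding TPM, which does not depend on the other RNA, the members took 0.512% in Control replicate 1 and 1.30% in Control replicate 4. The SIGLEC12 samples took 1.20%, 1.21% and 1.74%, so that Control replicate 4 lay within their range.

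The summed squamous markers were highest in the same sample. All 14 of them passed the filter, and their summed TPM was 3831 in Control replicate 1, 679.9 in Control replicate 4, and from 469.3 to 1063 in SIGLEC12. Krt14, the basal squamous keratin, had a log2 level of 10.16 in Control replicate 1 and from 5.69 to 7.64 in the other 4 samples. Krt16, a keratin of stressed squamous epithelium, had 8.82 there and from 1.76 to 2.95 elsewhere. Control replicate 1 was the highest sample for 10 of the 14, and not for Krt13, Krt4, Krt1 and Sprr3. Krt4, a keratin of moist squamous linings, was lowest there, at 4.30 against 5.85 to 7.45. The squamous list had a median log2 fold change of -1.39 with all samples and of -0.11 without Control replicate 1, and 0 of its genes passed the adjusted threshold. Markers of mature colon epithelium were mixed. Of 6, 5 were tested, 2 higher and 3 lower in SIGLEC12, and the summed TPM was 155.1 and 503.5 in Control and from 229.4 to 390.7 in SIGLEC12. Slc26a3, the chloride transporter of surface colonocytes (named after its values were seen), had 3.32 and 4.61 in Control and from 2.04 to 2.82 in SIGLEC12. Guca2a of the same list, named likewise, went the other way, with 2.61 and 3.91 in Control and from 4.29 to 4.56 in SIGLEC12. In 1 of the 5 tested genes the SIGLEC12 samples lay above both Control samples (54.1% of all genes). In 1 they lay below both, and the share of all genes for that side is given only after rescaling. After rescaling 2 of the 5 lay below both, against 16.8% of all genes, and 0 above both (15.6%). Fibroblast markers did not overlap between the groups in their sum. Of 7, 6 passed the filter, and the summed TPM was 10.4 and 14.2 in Control and from 25.7 to 71.02 in SIGLEC12. Singly, 4 of the 6 had all SIGLEC12 samples above both Control samples (54.1% of all genes), and 4 after rescaling (15.6%). Col1a1 and Col1a2 overlapped. In pieces of whole tumor, fewer cells of a type and less RNA per cell cannot be told apart, and the part of either cell type in the members' differences was not tested. Smooth muscle markers (all 6 tested) summed to 45.3 and 52.0 in Control and from 45.7 to 112.3 in SIGLEC12, leukocyte markers (5 of 10 tested) to 23.7 and 10.6 and from 12.6 to 46.7. Endothelial markers (0 of 5 tested) summed to 1.07 and 1.12 in Control and from 2.18 to 5.55 in SIGLEC12. The leukocyte genes Ptprc, Cd3e and Cd79a, the endothelial genes Kdr and Vwf and the fibroblast gene Lum were below a TPM of 1 in all 5 samples, and no listed marker was at 0 throughout.

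**Figure D2:**
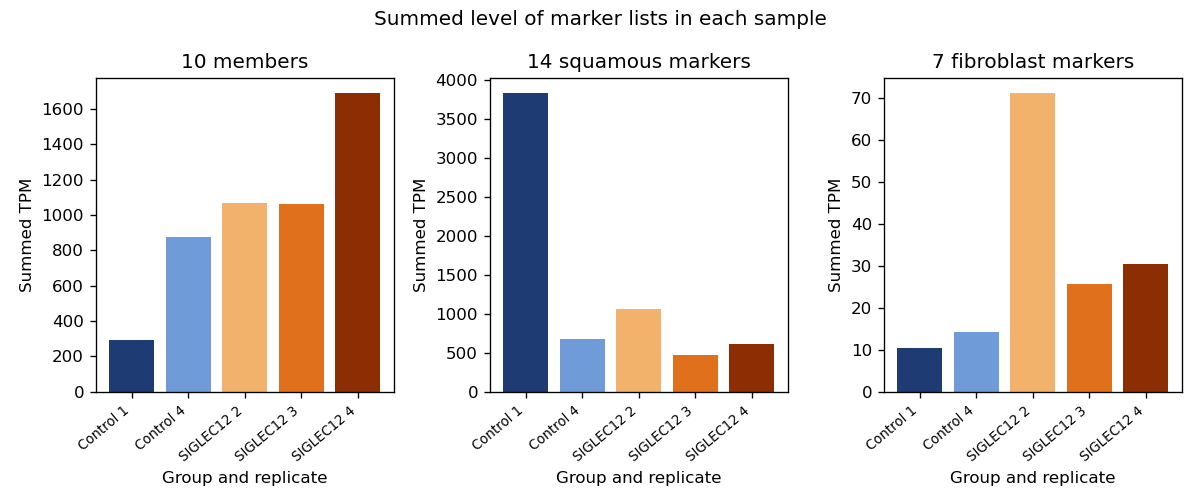
Summed TPM of the 10 members, of 14 squamous markers and of 7 fibroblast markers in each sample, 1 bar per sample. Control replicate 1 has the lowest sum of the members (291.8) and the highest of the squamous markers (3831), and SIGLEC12 replicate 2 has the highest of the fibroblast markers (71.02).

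Without Control replicate 1, the median over the members was 0.59, against 0.26 over all genes tested, and the lone Control sample was assumed to vary like the others. Of the members, 8 were higher in SIGLEC12, against 79.4% of all genes. Krt18 remained the largest at 0.87 (SE 0.43), followed by Krt7 at 0.70, Cdh17 at 0.66, Epcam at 0.63, Krt19 at 0.61 and Krt8 at 0.56. Lgals4 and Krt23 came to 0.23 and 0.19, Vil1 to -0.03 and Krt20 to -0.14. No member had an unadjusted p of at most 0.05 in that fit (all genes: 13.9% higher). When the values were also rescaled, the member median was 0.16, and Krt20, Vil1, Lgals4 and Krt23 had negative values. Without Control replicate 4 the median was 1.96, and 7 members (Krt8, Krt18, Krt19, Epcam, Vil1, Cdh17 and Lgals4) passed the adjusted threshold with a limma adjusted p between 0.0414 and 0.0482, against 9.31% of all genes called higher in that fit. Over all alternatives run, the members' adjusted p ranged from 0.0414 to 0.991.

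**Figure D3:**
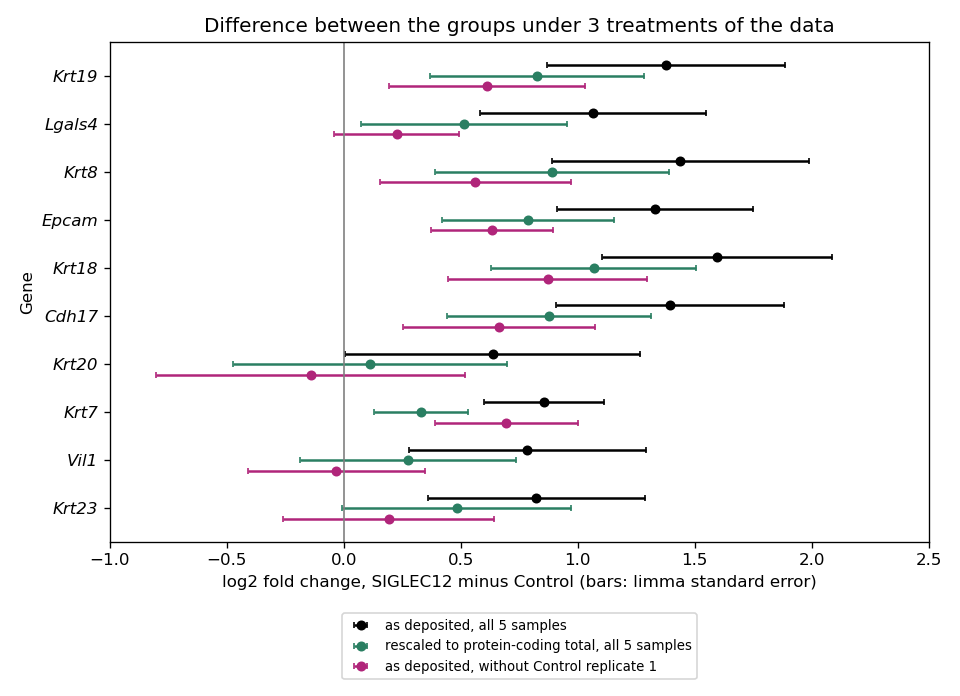
Log2 fold change of each member, SIGLEC12 minus Control, with all samples as deposited, rescaled to a common protein-coding total, or without Control replicate 1 (bars, limma standard error). The values of Krt8 go from 1.44 to 0.89 and 0.56, and those of Krt20 and Vil1 reach -0.14 and -0.03.

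The members were next compared with each other inside each sample, as differences of log2(TPM + 1), which depend little on the scaling of a sample except for low genes such as Krt23. Epcam served as the common denominator, and 9 ratios were tested. Krt19 stood above Epcam by 1.67 ± 0.10 (SD, n = 2) on the log2 scale in Control and by 1.72 ± 0.41 (SD, n = 3) in SIGLEC12, with p = 0.9 by exact permutation and 1.0 once adjusted over the 9 ratios. Krt8 stood above Epcam by 1.05 ± 0.25 (SD, n = 2) in Control and by 1.16 ± 0.38 (SD, n = 3) in SIGLEC12, with p = 0.8 by exact permutation. The difference between the groups in a ratio was 0.26 for Krt18 and 0.06 for Cdh17, smaller than the SD of either ratio in SIGLEC12 (0.40 and 0.39).

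With 1 added to each TPM, the ratios of Lgals4 and Vil1 to Epcam lay lower in all 3 SIGLEC12 samples. For Vil1 the groups overlapped with a pseudocount of 0.1. Lgals4 stood above Epcam by 1.24 and 1.53 in Control and by 1.05, 1.13 and 1.18 in SIGLEC12, a difference of -0.27 (exact permutation p = 0.1, adjusted over the 9 ratios 0.9). Vil1 stood at -2.08 and -1.84 in Control and at -2.48, -2.87 and -2.15 in SIGLEC12, a difference of -0.55 (exact permutation p = 0.2). With a pseudocount of 0.1 the Vil1 difference was -0.50 (exact permutation p = 0.3). With 1 added, ratios below both Control samples were found for 2 of 9 members, against 71.8% of all tested genes, and above both for 0 of 9, against 0.106%. Epcam was itself higher in SIGLEC12, by a log2 fold change of 1.33 against a median of 0.38 over all genes. Ratios to it therefore fall for most genes, so these shares follow from the denominator and say nothing about the members. Krt20 had the largest difference of the ratios, -0.69, but its values of -1.52 and -1.36 in Control lay within the SIGLEC12 range of -2.72 to -1.23 (exact permutation p = 0.4). Krt7 stood at -1.06 in Control replicate 1 and between -2.19 and -1.86 in the other 4 samples, so its ratio set that sample apart and not the groups. Krt23 had a difference of -0.51 (exact permutation p = 0.5), and of -0.13 with a pseudocount of 0.1. Of the 9 ratios, 0 had an exact permutation p under 0.05, which the design cannot reach.

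**Figure D4:**
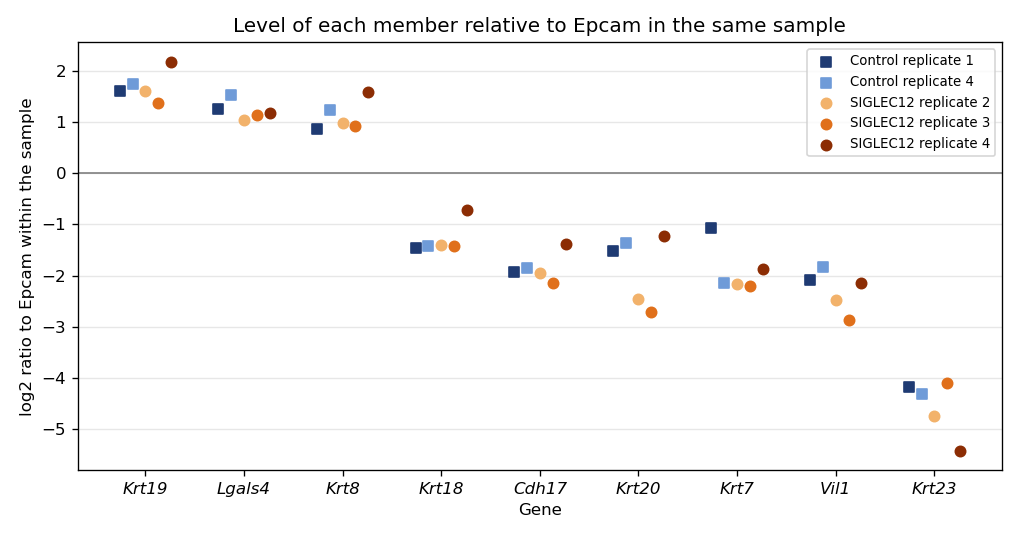
Log2 ratio of each member to Epcam within each of the 5 samples (squares, Control; circles, SIGLEC12). Krt7 in Control replicate 1 (-1.06) lies apart from the other 4 samples, and the SIGLEC12 samples of Lgals4 and Vil1 lie below both Control samples.

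Other genes of columnar epithelium were counted in 4 lists. Of the transcription regulators, 7 of 8 passed the filter, all 7 were higher in SIGLEC12, against 87.2% of all genes tested, and the median log2 fold change was 0.79. The adjusted threshold was passed by 0, and 4 of 7 had limma p-values within 0.05 before adjustment, against 33.4% of all genes. Elf3, an epithelial ETS factor, had 3.91 and 4.98 in Control and from 5.31 to 5.54 in SIGLEC12, a log2 fold change of 0.97 (limma adjusted p = 0.117). Cdx1, a homeobox factor of the intestine, and Gata6, a factor of gut epithelium, had log2 fold changes of 0.95 and 0.77. In 4 of the 7, these 3 included, the SIGLEC12 samples lay above both Control samples (54.1% of all genes), and after rescaling in 0 of the 7 tested (15.6% of all genes). Without Control replicate 1 the median of the list was 0.29, close to the 0.26 of all genes.

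Of the adhesion and surface proteins all 10 passed the filter and all 10 were higher (87.2% of all genes), with a median of 0.93. At an unadjusted limma p within 0.05 there were 6 of 10, against 33.4% of all genes. The tetraspanin gene Tspan8 had 3.50 and 4.59 in Control and 5.28, 5.48 and 5.72 in SIGLEC12. The tight junction gene Cldn3 had 3.59 and 4.86 in Control and 5.55, 5.65 and 5.77 in SIGLEC12. Both kept the groups apart after rescaling, 2 of 10 against 15.6% of all genes, where their log2 fold changes were 0.92 and 0.91 against 1.45 and 1.43 as deposited. Spint2, a protease inhibitor, had a log2 fold change of 0.92. Without Control replicate 1 the median of the list was 0.41, Tspan8 came to 0.90 and Cldn3 to 0.80.

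The brush border list, to which Vil1 belongs by function, had a lower median than the members. Of its 12 genes, all tested, 11 were higher, close to the 87.2% of all genes, and the median was 0.59. An unadjusted limma p within 0.05 was found for 1 of 12, against 33.4% of all genes. That gene was Misp, an actin-binding protein, whose log2 level was 2.85 and 4.39 in Control, and 4.68, 4.67 and 5.03 in SIGLEC12, a log2 fold change of 1.17 (limma adjusted p = 0.128). Pls1, which encodes an actin-bundling fimbrin, and Ush1c, a scaffold between microvilli, had log2 fold changes of 1.03 and 0.58 and overlapping groups. Without Control replicate 1 the median was 0.10, below the 0.26 of all genes, as the value of Vil1 was.

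Linkers of keratin filaments and their desmosome partners were counted last. Of the 10 genes, all tested, 7 were lower in SIGLEC12 and 3 higher, against 87.2% of all genes higher. The median was -0.36 as deposited and -0.84 after rescaling. Pkp2 and Dsg2, desmosome genes also used in simple epithelia, were among the higher ones with log2 fold changes of 0.98 and 1.16, and in both the SIGLEC12 samples lay above both Control samples, 2 of 10 against 54.1% of all genes. After rescaling neither kept the groups apart, and 5 of 10 genes of the list lay below both Control samples, against 16.8% of all genes. Evpl, which encodes envoplakin of the squamous envelope, had a log2 fold change of -0.64 (limma adjusted p = 0.220). Dsp, Jup and Dsc2, named after their values were seen, had their highest log2 level in Control replicate 1, at 7.07, 6.86 and 6.50, against at most 5.84, 5.85 and 4.91 in the other samples. Control replicate 1 was the highest sample for 5 of the 10 genes, these included, and not for the other 5. Dsg2 and Pkp2 were lowest there, at 2.72 and 0.87. Without that sample the median of the list was -0.01.

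**Figure D5:**
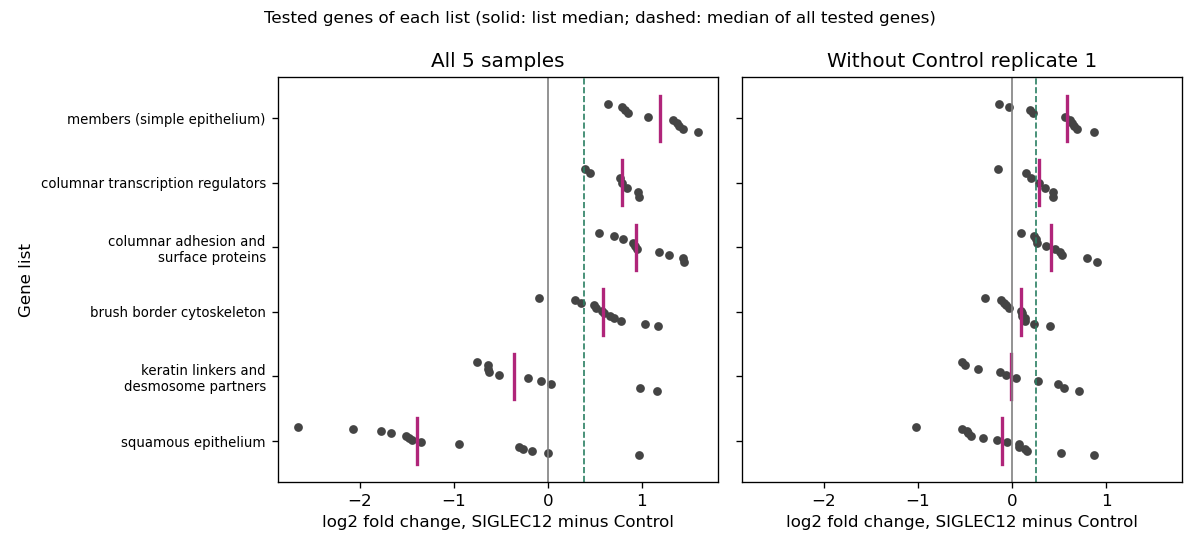
Log2 fold change, SIGLEC12 minus Control, of each tested gene in the members and 5 further lists, with all samples (left) and without Control replicate 1 (right). Solid lines mark list medians (members 1.20 and 0.59) and dashed lines the median of all tested genes (0.38 and 0.26).

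The genes with profiles most like that of the members were found by the root mean square distance of centred log2 levels over the 5 samples. The mean of the members lay 1.38 below its own average in Control replicate 1, 0.02 above it in Control replicate 4 and 0.25, 0.28 and 0.83 above it in SIGLEC12 replicates 2, 3 and 4. The closest genes were St6galnac6 (distance 0.06), a sialyltransferase, Cmas (0.06), which activates sialic acid, Misp (0.09), Cd55 (0.10), a complement inhibitor, and Gsr (0.10), glutathione reductase. Their log2 fold changes ran from 0.98 to 1.17. The members themselves lay between 0.15 (Lgals4) and 0.58 (Krt23) from their mean, of which each is a part. With 5 samples, this likeness is a description only.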

How the data were processed

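RNA-Seq of mouse colon tumors was analysed for 2 Control and 3 SIGLEC12 samples, grouped by their titles. The series is described with 3 mice in each condition; any further Control sample is not used here. In the table the authors deposited, 52143 genes have log2 values, as log2(TPM + 1), in which TPM summed to between 999999 and 1000001 per column. The submitters' processing notes name kallisto 0.45.0 and GRCm38. How transcripts were summed to genes, and whether technical replicate libraries were averaged, is not given in the sources used here. The labels name a stranded total RNA kit and the methods a stranded mRNA kit. TPM keeps no depth, so no counting interval was given. Of the gene identifiers, 98.45% were in GENCODE M21, which gave biotypes and coordinates. Every value column was matched to a sample.

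Genes with a TPM of at least 1 in at least 2 samples were fitted with limma 3.58.1 (R 4.3.3; lmFit, eBayes with trend) without covariates. P-values were two-sided and Benjamini-Hochberg adjusted over all 10338 genes tested, with a threshold of 0.05 and 2-fold. Because 1 is added to each TPM, fold changes of low genes come out too small. Single values and ratios were compared by exact two-sided permutation over 10 splits. The fit was tested on simulated data. All members were named, and in each of the 4 wider lists the 3 genes with the smallest unadjusted p. The 5 genes of most similar profile had a mean TPM of at least 5 and no provisional name. Members and lists were chosen with earlier results of these data known. Alternatives were a pseudocount of 0.1, no filter or a TPM of at least 5, rescaling to the protein-coding total, quantile normalization, median-ratio size factors, sample quality weights and leaving out each sample. Human SIGLEC12 matched no symbol used here, so the knock-in was not checked.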

Additional observations from a re-analysis of the deposited data

How the results depend on the processing

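No paired analysis was possible because number 4 alone occurs in both groups. Rescaling together with leaving out Control replicate 1 was chosen after seeing the data. Each fit that left out a Control sample rests on the assumption that the lone sample varies like the SIGLEC12 samples.

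Genes past the adjusted threshold numbered 0 higher and 0 lower under every alternative that kept all samples, and from 0 to 962 higher and from 0 to 97 lower when 1 sample was left out. The upper ends were without Control replicate 4, and without SIGLEC12 replicate 4 there was 1 higher gene, Gm13394, named after its values were seen. At the unadjusted threshold there were 410 higher and 46 lower genes as deposited, 1087 higher with a pseudocount of 0.1, and 19 lower with a TPM of at least 5. Rescaling to the protein-coding total gave 38 higher and 142 lower, quantile normalization 45 and 131, and median-ratio size factors 46 and 139. Leaving out 1 sample gave from 143 (without Control replicate 1) to 1366 higher (without Control replicate 4) and from 51 to 146 lower (119 without Control replicate 1, 75 without SIGLEC12 replicate 4). With rescaling and without Control replicate 1 there were 27 higher and 223 lower. The cause was not tested.

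The member median was 1.20, from 0.59 to 1.96 when 1 sample was left out, and 0.16 with rescaling and without Control replicate 1. Under the 7 alternatives that kept all samples, each tested member kept a positive log2 fold change and an adjusted p above 0.05, and Krt23 gave no value with a TPM of at least 5. When 1 sample was left out, Krt20 ran from -0.14 (without Control replicate 1) to 1.41 (without Control replicate 4) and Vil1 from -0.032 to 1.60 (the same samples). With rescaling and without Control replicate 1, Krt20 was -0.56, Vil1 -0.45, Lgals4 -0.21 and Krt23 -0.13. Of the ratios to Epcam, those of Krt8, Krt19 and Krt7 changed sign without Control replicate 1 (-0.07, -0.02 and 0.061), and those of Krt8, Krt19 and Cdh17 without SIGLEC12 replicate 4 (-0.11, -0.18 and -0.15). With a pseudocount of 0.1 the ratio of Krt23 went from -0.51 to -0.13 and that of Cdh17 from 0.06 to 0.12. That of Vil1 went from -0.55 to -0.50, and its groups then overlapped. When 1 sample was left out, the other ends of those that changed sign were 0.29 for Krt8, 0.22 for Krt19 and for Cdh17, and -1.01 for Krt7. With 2 and 3 samples of unknown depth, a difference between the groups smaller than the gap between the Control samples could not be told from it.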
